A study of Danio rerio with 13 samples.

Results

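Genes for 5 transcription factors of the oral and palatal region of the face were followed through all 13 libraries of a study of zebrafish arch neural crest cells: *lhx6* (ENSDARG00000006896), *lhx8a* (ENSDARG00000002330), *pax9* (ENSDARG00000053829), *tbx22* (ENSDARG00000091748) and *gsc* (ENSDARG00000059073). They were chosen by name, as factors known from oral and palatal mesenchyme, and are 5 of the 27911 genes in the expression table. All 5 were among the 11690 genes with a mean of at least 1 RPKM (reads scaled by transcript length and by the mapped reads of the library) over the 13 libraries. RPKM corrects for gene length, so levels can be set side by side between genes.

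The pharyngeal arches are paired bulges under the embryonic head, filled with neural crest cells that build the jaws and the skeleton of the palate. LIM-homeodomain factors such as Lhx6 and Lhx8 mark the oral side of the first arch in the mouse, where they take part in tooth and palate formation. Pax9, a paired-box factor, is needed for teeth and palate in the mouse and is also made by pharyngeal endoderm. TBX22, a T-box factor, is the gene of X-linked cleft palate in humans, and Goosecoid (Gsc) is a homeodomain factor of the organizer that later acts in arch mesenchyme. Endothelin 1 (Edn1) is a secreted signal for ventral, lower-face identity, and Jagged-Notch signaling acts in the dorsal arch. The study asked how these pathways set arch gene expression.

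Cells were sorted from dissociated *fli1a*:EGFP; *sox10*:DsRed embryos. Crest cells of the arches carry both reporters, whereas EGFP alone is expected in vessels and macrophages and DsRed alone in the ear and in crest outside the arches. Double-positive cells were collected from wild types at 20, 28 and 36 hours post-fertilization (hpf), and EGFP-only (*fli1a* single-positive) and DsRed-only (*sox10* single-positive) cells at 36 hpf. The double-positive populations of perturbed embryos at 36 hpf came from *edn1*-/- mutants, picked by arch shape at about 34 hpf, *jag1b*-/- mutants with their genotyped wild-type siblings (tail biopsy at 24 hpf), and wild types given the γ-secretase inhibitor DBZ (10 µM, 24 to 36 hpf), which blocks Notch activation. Embryos with *hsp70I*:Gal4 and either *UAS*:Edn1 or *UAS*:NICD, which make Edn1 or the Notch1a intracellular domain from a heat-shock promoter, were compared with *hsp70I*:Gal4 alone, and *UAS*:Edn1 alone gave a further control. All 4 of these populations are labelled as heat shocked, and the study's methods give 40 °C from 20 to 24 hpf for the overexpression lines. Embryos with both transgenes were also identified by tail biopsy at 24 hpf. All embryos of the 36 hpf stage were moved to 22 °C at 27 hpf to slow them. There was 1 library per condition, each from pooled embryos, so no difference between conditions has a replicate check and none was tested.

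The depth of the libraries, recovered from the steps of low RPKM values, was 0.687 (*edn1*-/-) to 1.23 (*hsp70I*:Gal4) times that of the wild-type 36 hpf library. The targeted genes followed the labels: *edn1* was 6.31 RPKM with Edn1 overexpression against 0.502 in the *hsp70I*:Gal4 control, *jag1b* was 3.42 in *jag1b*-/- against 18.9 in siblings, and *notch1a* was 31.0 with NICD against 3.44 in the *hsp70I*:Gal4 control. For *edn1*-/- the check has no weight, since *edn1* was listed at 0 in the mutants and had only 3 reads in wild types. The summed RPKM of 9 arch crest genes was 629.6 in double-positive cells at 36 hpf, against 306.5 in *fli1a* and 241.6 in *sox10* single-positive cells. One of these, *sox10* itself, was 3.12 RPKM in double-positive cells, against 1.19 in *fli1a* and 161.3 in *sox10* single-positive cells. Of all 13 libraries, *fli1a* single-positive cells had the highest blood (52515 RPKM) and vessel (99.2) marker sums, and *sox10* single-positive cells the highest ear sum (238.8 RPKM), below their epidermal (447) and muscle (350.5) sums.

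**Figure D1:**
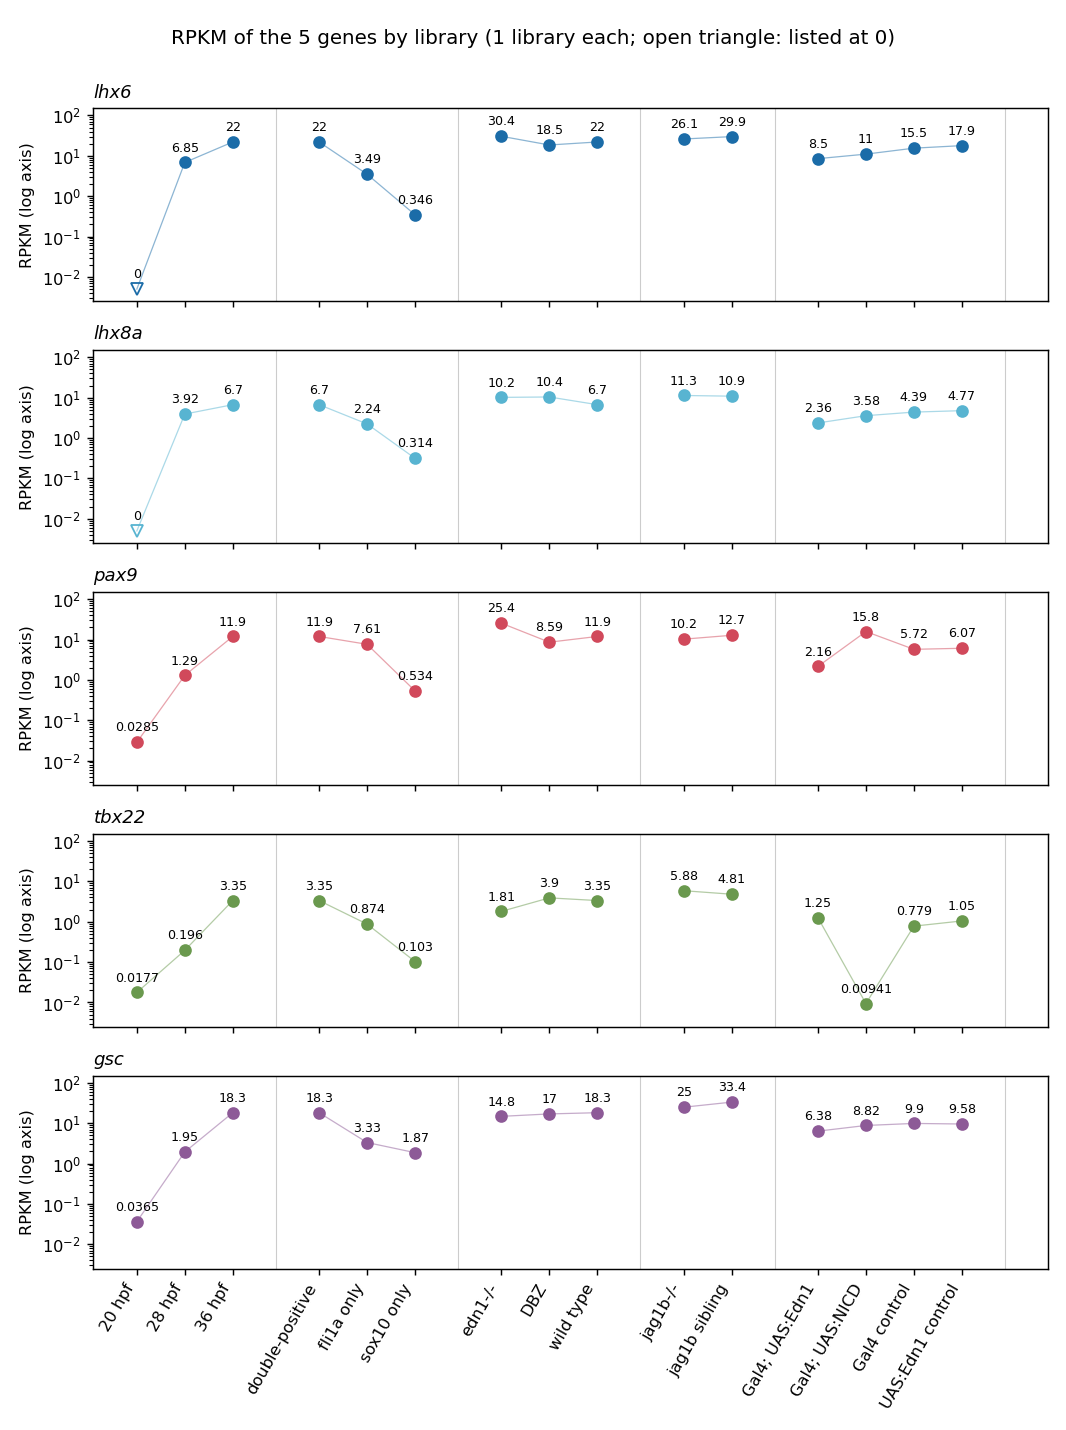
RPKM of the 5 genes (log axis) in each library, in blocks for the stages, the cell populations at 36 hpf, and the perturbations with their controls; points are single libraries, and open triangles stand for values listed at 0. All 5 genes are lowest or near lowest at 20 hpf and higher in double-positive than in single-positive cells, and *tbx22* drops to 0.00941 RPKM with NICD.

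The first comparison was between stages, which asks when arch cells switch these genes on. All 5 genes were almost silent at 20 hpf and higher at each later stage. *lhx6* was 0, 6.85 and 22.002 RPKM at 20, 28 and 36 hpf. *lhx8a* was 0, 3.92 and 6.70 RPKM at these stages. *pax9* was 0.0285, 1.29 and 11.9 RPKM. At 20 hpf the 2 LIM genes had no read at all, and *pax9* had 3 reads. *tbx22* was 0.0177, 0.196 and 3.35 RPKM, the lowest level of the 5 at 28 and 36 hpf. *gsc* was 0.0365, 1.95 and 18.3 RPKM, with 3 reads at 20 hpf.

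The timing differed among the genes. Against a floor of 3 reads in the 20 hpf library, *lhx6* was at least 378-fold and *lhx8a* at least 141-fold higher at 28 than at 20 hpf. The ratio was 45.4 for *pax9* (95% counting interval 15.2 to 223) and 53.4 for *gsc* (17.9 to 262). These intervals are exact Clopper-Pearson intervals of the reads and cover counting error only. *tbx22* gave a ratio of 11.1 (2.69 to 96.0, taking its smallest value in the table as 1 read, since its reads could not be recovered). From 28 to 36 hpf *tbx22* had the highest ratio and the LIM genes the lowest: the ratio of 36 over 28 hpf was 17.1 for *tbx22* (11.2 to 27.9), 9.38 for *gsc* (7.97 to 11.1), 9.21 for *pax9* (7.71 to 11.1), 3.21 for *lhx6* (3.00 to 3.44) and 1.71 for *lhx8a* (1.51 to 1.93). The intervals of *tbx22*, *gsc* and *pax9* lie above that of *lhx6*, which lies above that of *lhx8a*, but cover this pair of libraries only. With *jag1b* wild-type siblings as the 36 hpf library the ratios kept that order, at 24.5 for *tbx22*, 17.1 for *gsc*, 9.84 for *pax9*, 4.36 for *lhx6* and 2.77 for *lhx8a*.

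All 5 genes passed a 1.5-fold threshold upward in both steps. Among all genes with a mean of at least 1 RPKM, 20.5% passed it upward from 20 to 28 hpf and 11% downward, and 15.1% passed it upward from 28 to 36 hpf and 24.6% downward. *tbx22* stood within the highest 0.325% of all genes in the later step, *gsc* within 0.701%, *pax9* within 0.727%, *lhx6* within 2.90% and *lhx8a* within 10.98%. Of 25 other genes on a list of oral and palate mesenchyme genes with a mean of at least 1 RPKM, 20 passed upward and 0 downward from 20 to 28 hpf, and 12 upward and 1 (*efnb1*) downward from 28 to 36 hpf. The highest of this list were *hand2*, a ventral arch factor, *barx1*, a factor of skeletal condensations, the growth factor receptor gene *pdgfra*, and *meis2a*. *hand2* was 0.760, 73.5 and 73.0 RPKM at the 3 stages, and *barx1* was 4.58, 57.4 and 83.0 RPKM. Both had most of their wild-type 36 hpf level by 28 hpf.

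The second comparison was between cell populations at 36 hpf. All 5 genes were higher in double-positive cells than in either single-positive population, by differing amounts. *lhx6* was 22.002 RPKM in double-positive cells, against 3.49 in *fli1a* and 0.346 in *sox10* single-positive cells. *lhx8a* was 6.70 RPKM, against 2.24 and 0.314 in the same populations. *tbx22* was 3.35 RPKM, against 0.874 and 0.103. *gsc* was 18.3 RPKM in double-positive cells, against 3.33 in *fli1a* and 1.87 in *sox10* single-positive cells. *pax9* was 11.9 RPKM in double-positive cells, against 7.61 in *fli1a* and 0.534 in *sox10* single-positive cells. The *sox10* population held the lowest level of every gene at 36 hpf except *tbx22*, which was lower with NICD.

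The ratio of double-positive over *fli1a* single-positive cells was 6.30 for *lhx6* (5.73 to 6.93), 5.48 for *gsc* (4.77 to 6.31), 3.83 for *tbx22* (3.02 to 4.91), 3.00 for *lhx8a* (2.57 to 3.51) and 1.57 for *pax9* (1.43 to 1.72). *pax9* was the closest of the 5 to equal levels, and its interval did not meet those of the other 4. With siblings as the double-positive library *pax9* was still the closest, at 1.67, but *gsc* (10.02) stood above *lhx6* (8.55), with *tbx22* at 5.50 and *lhx8a* at 4.87. Over *sox10* single-positive cells the ratio was 63.6 for *lhx6* (48.7 to 84.9), 32.4 for *tbx22* (17.9 to 65.5), 22.3 for *pax9* (17.0 to 30.0), 21.3 for *lhx8a* (15.0 to 31.4) and 9.77 for *gsc* (8.23 to 11.7). *gsc* was the gene with the smallest ratio there, and also with siblings (17.9), where *lhx8a* (34.7) stood above *pax9* (23.9). All 5 genes passed 1.5-fold upward in both; among all genes 17.8% passed upward and 11.8% downward against *fli1a* cells, and 22.9% upward and 16.4% downward against *sox10* cells.

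*pax9* is also made by pharyngeal endoderm in vertebrates, and endoderm markers were low in every population. The summed RPKM of 9 such markers was 0.757 in double-positive cells, against 3.51 in *fli1a* and 2.58 in *sox10* single-positive cells. The highest in *fli1a* cells was *nkx2.3*, at 1.56 RPKM against 0.0897 in double-positive cells, and the Pax1 genes *pax1a* and *pax1b*, the closest relatives of *pax9*, were 0.570 and 0.222 RPKM there. Their part in the *pax9* level of *fli1a* cells was not tested. Levels near those of *fli1a* cells were not particular to *pax9*. In double-positive against *fli1a* cells *prrx1a* was 81.5 against 58.1 RPKM, *six2a* 28.7 against 24.1 and *twist2* 6.50 against 6.41. Of the 9 arch crest genes, however, 7 were past 1.5-fold upward there and 0 downward. In bulk samples, fewer cells of a type and less RNA per cell cannot be told apart. With libraries rescaled by their median ratio over genes, *pax9* was 1.34-fold higher in double-positive than in *fli1a* single-positive cells, below the threshold. That scaling moved every ratio against *fli1a* cells by -0.22 and against *sox10* cells by -0.14 on the log2 scale, and the other 4 genes stayed past 1.5-fold.

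Of the 25 other oral and palate genes, 17 were past 1.5-fold upward and 1 (*bmp4*) downward against *fli1a* cells, and 23 upward and 0 downward against *sox10* cells. In the genes closest in sequence family to the 5, the picture was mixed. *lhx8b*, the second *lhx8* gene of zebrafish, was 3.97 RPKM in double-positive cells, against 1.74 in *fli1a* and 2.22 in *sox10* single-positive cells, and, unlike *lhx8a*, was already 3.33 RPKM at 20 hpf and 3.93 at 28 hpf. *pax1a* and *pax1b* were at most 0.570 and 0.222 RPKM in any library. *pitx1* and *pitx3*, homeodomain factors among the relatives of *gsc* in the list, passed 1.5-fold upward in double-positive cells against both single-positive populations, and both passed upward in both steps between stages. Of the 6 other T-box genes with a mean of at least 1 RPKM, 1 (*tbx2a*) passed upward and 1 (*tbx1*) downward against *fli1a* cells.

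The third comparison was of control libraries at 36 hpf, which give the only measure of spread. The unshocked controls, *jag1b* wild-type siblings and wild types, gave sibling over wild-type ratios of 1.36 for *lhx6*, 1.62 for *lhx8a*, 1.07 for *pax9*, 1.44 for *tbx22* and 1.83 for *gsc*. For *lhx8a* and *gsc* the wild-type populations of nominally one stage thus differed by more than 1.5-fold. The heat-shocked controls were closer together, with *UAS*:Edn1 over *hsp70I*:Gal4 ratios of 1.16, 1.09, 1.06, 1.35 and 0.968 in the same gene order.

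Between the heat-shocked and unshocked controls all 5 genes were lower after heat shock, without overlap. *lhx6* was 15.5 RPKM in *hsp70I*:Gal4 and 17.9 in *UAS*:Edn1 controls, against 22.002 in wild types and 29.9 in siblings. In the same order *lhx8a* was 4.39 and 4.77 RPKM, against 6.70 and 10.9. *pax9* was 5.72 and 6.07 RPKM, against 11.9 and 12.7. *tbx22* was 0.779 and 1.05 RPKM in the heat-shocked controls, against 3.35 and 4.81 in the unshocked ones, and *gsc* was 9.90 and 9.58 RPKM, against 18.3 and 33.4. The geometric means were 1.54-fold (*lhx6*), 1.87-fold (*lhx8a*), 2.09-fold (*pax9*), 4.45-fold (*tbx22*) and 2.54-fold (*gsc*) lower. In all genes the median ratio was 1.07, and 5.27% were at least 1.5-fold lower without overlap. With 2 libraries against 2, of differing genotypes, an exact permutation test cannot go below a two-sided p of 0.333, and none was run.

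**Figure D2:**
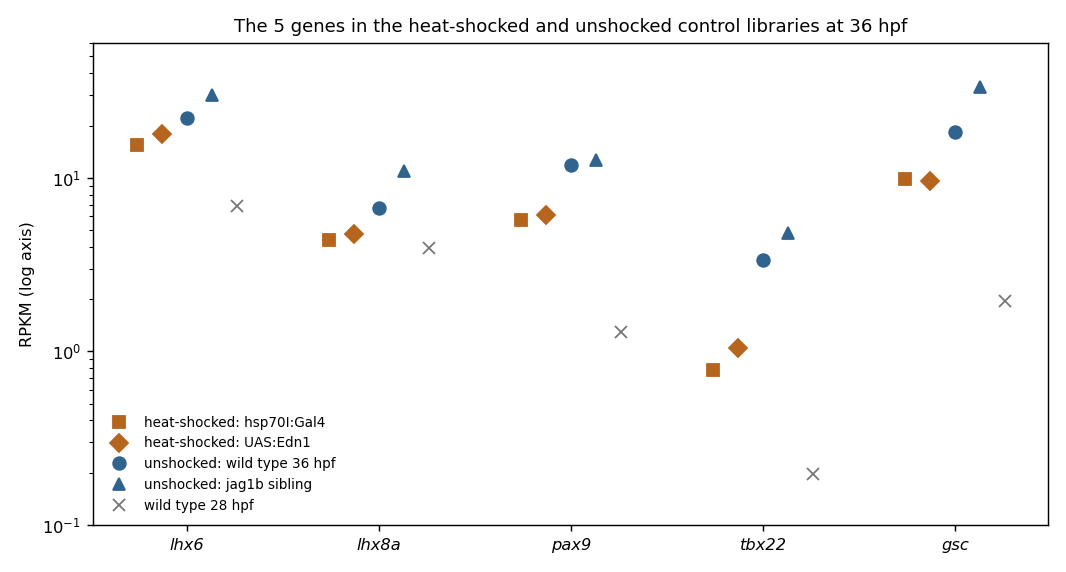
RPKM (log axis) of the 5 genes in the heat-shocked controls (*hsp70I*:Gal4 and *UAS*:Edn1), the unshocked controls (wild type and *jag1b* siblings) and wild types at 28 hpf; each point is 1 library. The heat-shocked controls lie below both unshocked controls and above the 28 hpf library for every gene, with the widest gap for *tbx22* (0.779 and 1.05 against 3.35 and 4.81 RPKM).

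For all 5 genes the heat-shocked level lay between the wild-type levels of 28 and 36 hpf. To set this beside the change with stage without using the 36 hpf wild-type library on both sides, the heat-shocked controls were also compared with siblings alone. That ratio was 0.188 for *tbx22*, 0.292 for *gsc*, 0.4202 for *lhx8a*, 0.463 for *pax9* and 0.556 for *lhx6*. Over all genes its median was 1.099, over the 1771 genes at least 1.5-fold higher at 36 than at 28 hpf it was 0.953, and over the 171 genes at least 5-fold higher it was 0.544. Against both unshocked controls, 3 of 3 muscle markers with a mean of at least 1 RPKM were at least 1.5-fold lower without overlap. The summed level of the 5 muscle markers was 15.6 and 6.08 RPKM in heat-shocked controls, against 359 and 107 in unshocked ones, and 17.6 at 28 hpf. Other marker lists went the other way. By the same rule 3 of 3 ear, 2 of 4 neuron and 3 of 6 epidermal markers were higher, and 0 of these lower. Of all genes, 9.21% were higher by that rule. Heat shock, genotype and any difference in stage cannot be told apart here. Of the 25 other oral and palate genes, 6 (*osr1*, *foxf2a*, *shox*, *nkx3.2*, *bmp2b* and *foxf2b*) were lower in the same way, and 0 higher.

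The fourth comparison was of Edn1 signaling. *pax9* was 25.4 RPKM in *edn1*-/- cells, against 11.9 in wild types, the highest level of this gene in any library. It was 2.16 RPKM with Edn1 overexpression, against 5.72 in *hsp70I*:Gal4 controls. The ratios were 2.13 (1.98 to 2.29) in mutants and 2.65-fold lower (2.27 to 3.10) with overexpression. Against the other control of each kind both directions held. Mutants were 1.99-fold higher than siblings, and overexpression was 2.81-fold lower than *UAS*:Edn1 controls. Against siblings, however, 35.1% of all genes were at least 1.5-fold higher in mutants, and 16.6% were at or above the *pax9* ratio. Against *UAS*:Edn1 controls 6.74% of all genes were at least 1.5-fold lower, and 0.547% were at or below the *pax9* ratio.

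The LIM genes *lhx6* and *lhx8a* were lower with Edn1 overexpression. *lhx6* was 8.50 RPKM with Edn1 overexpression, against 15.5 in *hsp70I*:Gal4 controls, 1.82-fold lower (1.70 to 1.94). *lhx8a* was 2.36 RPKM, against 4.39, 1.86-fold lower (1.60 to 2.17). In *edn1*-/- cells *lhx6* was 30.45 RPKM, against 22.002 in wild types, a ratio of 1.38 (1.32 to 1.45) that did not reach 1.5-fold. *lhx8a* was 10.2 RPKM in mutants, against 6.70 in wild types, a ratio of 1.52 (1.37 to 1.68). Both ratios rest on the choice of wild type: with siblings as the control they were 1.02 for *lhx6* and 0.934 for *lhx8a*.

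*tbx22* ran the other way. It was 1.81 RPKM in *edn1*-/- cells, against 3.35 in wild types, 1.85-fold lower (1.52 to 2.26), and 2.66-fold lower than in siblings. With Edn1 overexpression it was 1.254 RPKM, against 0.779 in *hsp70I*:Gal4 controls, a ratio of 1.61 (1.23 to 2.09) that was 1.20 with *UAS*:Edn1 controls. *gsc* was 14.8 RPKM in *edn1*-/- cells, against 18.3 in wild types, a ratio of 0.812 (0.745 to 0.884), and 6.38 RPKM with overexpression, against 9.90 in controls, 1.55-fold lower (1.39 to 1.73). *gsc* was thus lower in both directions of the perturbation, though in mutants past 1.5-fold only against siblings (2.25-fold), and with overexpression 1.49-fold lower, short of the threshold, after median-ratio scaling.

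Counted over the 5 genes, 2 (*lhx8a* and *pax9*) were past 1.5-fold upward and 1 (*tbx22*) downward in *edn1*-/- cells, where 24.6% of all genes were upward and 11.3% downward. With Edn1 overexpression 1 (*tbx22*) was upward and 4 downward, where 5.09% were upward and 8.59% downward. Median-ratio scaling moved every *edn1*-/- ratio by -0.25 on the log2 scale. Relative to that, *pax9* was 1.79-fold higher, *lhx8a* 1.27-fold higher and *tbx22* 2.21-fold lower. Muscle markers summed to 85.0 RPKM in *edn1*-/- cells, against 359 in wild types and 107 in siblings. Blood markers summed to 11.5 RPKM in these mutants, against 117 in wild types and 264 in siblings. Of 9 arch crest genes, 5 (*prrx1b*, *fli1a*, *snai1a*, *sox10* and *dlx2a*) were upward and 0 downward in *edn1*-/- cells against wild types. The 9 summed to 898.8 RPKM in these mutants, against 629.6 in wild types and 674.3 in siblings. Set against siblings, *sox10* was lower in mutants (5.05 against 12.2 RPKM). The other named crest genes were higher than in siblings, among them *prrx1b* (163 against 87.8) and *dlx2a* (221 against 163.5). With Edn1 overexpression blood markers summed to 100.1 RPKM, against 1206 in *hsp70I*:Gal4 but 155.9 in *UAS*:Edn1 controls. Against *hsp70I*:Gal4 controls 0 of the 9 arch crest genes were upward and 2 downward. The part of these markers in the 5 genes' values was not tested.

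Of the 25 other oral and palate genes, 6 were upward (*foxf1*, *foxf2a*, *fgf10a*, *six2a*, *foxf2b* and *meis2b*) and 6 downward (among them *barx1*, *msxe*, *hand2* and *tgfb3*) in *edn1*-/- cells. With Edn1 overexpression 1 was upward (*efnb1*) and 4 downward (*osr1*, *bmp4*, *bmp2b* and *foxf2b*). A list of LIM cofactor genes held *ldb*, *lmo* and *ssbp* genes. Of its 11 genes with a mean of at least 1 RPKM, 6 were upward and 0 downward in *edn1*-/- cells. The list counts in *edn1*-/- cells are against wild types only, without median-ratio scaling. With Edn1 overexpression 1 was upward and 2 were downward. The most abundant were *ssbp3b*, at 124 RPKM in *edn1*-/- against 69.5 in wild types, *lmo4b*, at 54.1 against 31.1, *ssbp4*, at 53.1 against 41.0, and *ldb1a*, at 63.4 against 39.3. In siblings they were 63.0 (*ssbp3b*), 52.1 (*lmo4b*), 47.8 (*ssbp4*) and 36.5 RPKM (*ldb1a*), so *lmo4b* was near its sibling level in mutants.

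**Figure D3:**
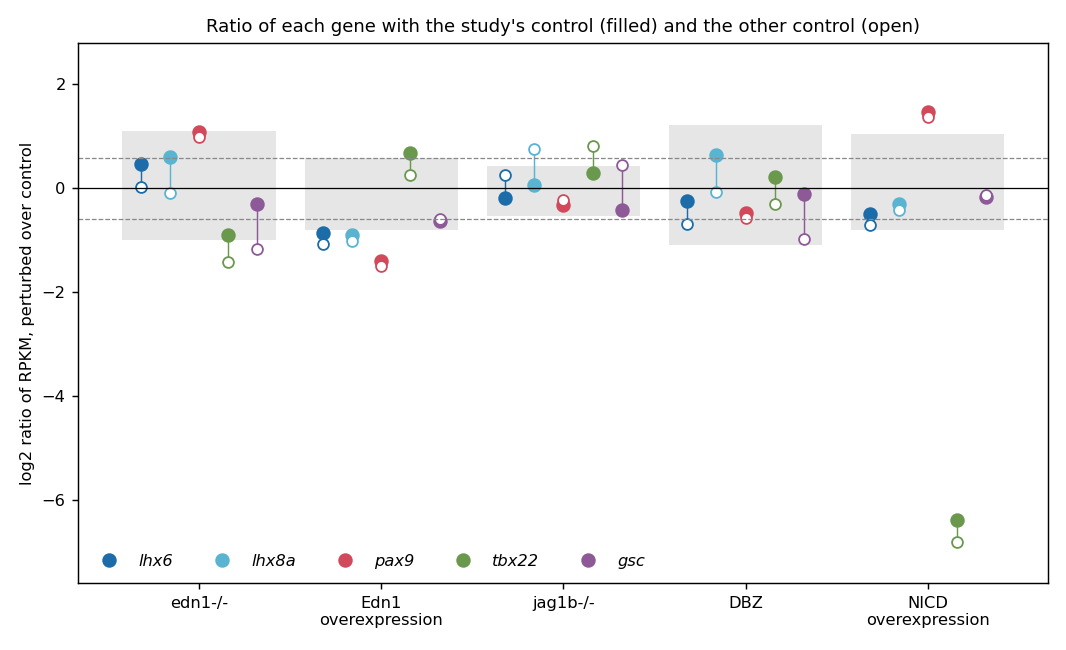
Log2 ratio of RPKM, perturbed over control, for the 5 genes in the 5 perturbations; filled points use the study's control, open points the other control of the same kind, grey blocks span the middle 90% of all genes with a mean of at least 1 RPKM, and dashed lines mark 1.5-fold. *pax9* lies at 1.09 in *edn1*-/- and -1.40 with Edn1 overexpression, and *tbx22* lies at -6.37 with NICD, far below the block.

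The fifth comparison was of Notch signaling. NICD gave the widest differences, and they ran in opposite directions in *pax9* and *tbx22*. *tbx22* was 0.00941 RPKM with NICD, against 0.779 in *hsp70I*:Gal4 and 1.05 in *UAS*:Edn1 controls. It was 82.8-fold lower than in *hsp70I*:Gal4 controls, with a counting interval of 14.6 to 3304 that takes the NICD value as 1 read, and 111-fold lower than in *UAS*:Edn1 controls. With the NICD value as 1 read, that of the 20 hpf library (0.0177 RPKM) was 2 reads, so their order cannot be told. By its ratio to *hsp70I*:Gal4 controls, *tbx22* stood within the lowest 0.103% of all genes. *pax9* was 15.8 RPKM with NICD, against 5.72 in *hsp70I*:Gal4 controls, a ratio of 2.76 (2.52 to 3.01), and 2.60 with *UAS*:Edn1 controls.

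The other 3 genes stayed within 1.5-fold of *hsp70I*:Gal4 controls. *lhx6* was 11.006 RPKM, against 15.5 in *hsp70I*:Gal4 controls, a ratio of 0.712 (0.671 to 0.755), and 1.62-fold lower than in *UAS*:Edn1 controls. *lhx8a* was 3.58 RPKM, against 4.39, a ratio of 0.815 (0.713 to 0.930). *gsc* was 8.82 RPKM, against 9.90, a ratio of 0.891 (0.807 to 0.983). Of the 5 genes 1 was upward and 1 downward, where 16.6% of all genes were upward and 7.72% downward. Ear markers summed to 32.1 RPKM with NICD, against 14.0 in *hsp70I*:Gal4 controls, and *sox10* itself was 73.4 RPKM, against 16.4. Their part was not tested.

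In *jag1b*-/- cells all 5 genes stayed within 1.5-fold of siblings. In *jag1b*-/- cells *tbx22* was 5.88 RPKM, against 4.81 in siblings, a ratio of 1.22 (1.09 to 1.38). The ratios of *lhx6* (26.1 against 29.9 RPKM), *lhx8a* (11.3 against 10.9), *pax9* (10.2 against 12.7) and *gsc* (25.0 against 33.4) were 0.873, 1.04, 0.802 and 0.748. So 0 of the 5 were upward or downward, where 2.37% of all genes were upward and 4.14% downward. Set against the wild-type 36 hpf library instead, *lhx8a* gave 1.69 and *tbx22* 1.75, and *lhx6* (1.19) and *gsc* (1.37) changed direction. The *jag1b*-/- library held the highest *tbx22* and *lhx8a* levels of all 13.

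With DBZ, *lhx8a* was 10.4 RPKM, against 6.70 in wild types, a ratio of 1.55 (1.41 to 1.70) that was 0.955 with siblings as the control. *tbx22* was 3.90 RPKM, against 3.35, a ratio of 1.16 (1.02 to 1.34). *lhx6* was 18.5 RPKM, against 22.002, *pax9* was 8.59, against 11.9, and *gsc* was 17.0, against 18.3. Their ratios were 0.843, 0.721 and 0.932. So 1 of 5 genes was upward and 0 downward, where 14.2% of all genes were upward and 15.7% downward. Epidermal markers summed to 389 RPKM with DBZ, against 179 in wild types and 286 in siblings, and their part was not tested. For *pax9* the values were lower in *jag1b*-/- and DBZ and higher with NICD than in controls, and for *tbx22* higher, higher and lower. The loss-of-function ratios of both genes were within 1.5-fold, and with siblings as the control of DBZ that of *tbx22* was 0.811, in the other direction.

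Of the 25 other oral and palate genes, 1 (*foxf2b*) was upward and 9 downward with NICD: *barx1* was 12.6 RPKM, against 66.2 in *hsp70I*:Gal4 controls, *hand2* was 10.04, against 78.7, and *nkx3.2*, a jaw joint factor, was 0.662, against 7.71. In *jag1b*-/- cells 1 (*osr2*) was upward and 1 (*foxf2b*) downward, and with DBZ 5 were upward and 1 (*shox*) downward. *lhx8b* was 9.51 RPKM with NICD, against 3.38 in *hsp70I*:Gal4 and 6.42 in *UAS*:Edn1 controls. Of the 6 other T-box genes, 0 were upward and 3 downward (*tbx3a*, *tbx15* and *tbx2a*) with NICD, *tbx3a* at 0.268 RPKM against 1.83. Of the FGF response genes 3 of 8 were upward and 1 downward with NICD, and 4 upward and 1 downward with DBZ; of the Hedgehog response genes 1 of 6 was upward with NICD and 2 with DBZ, and none downward.

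The study sorted arch genes by fold filters: an RPKM of at least 3 in wild types at 36 hpf and at least 1.5-fold over both single-positive populations, then a ratio of at least 1.5 (activated) or at most its inverse (inhibited) between gain and loss of a pathway, with the gain (activated) or the loss (inhibited) at or above its control and, for Notch, the same direction against DBZ. Applied here to the deposited values, these filters made 719 of 7530 genes with an RPKM of at least 3 (9.55%) arch genes. All 5 were among them. The lists are not the study's own, whose arch list is somewhat longer. *lhx6*, *lhx8a* and *pax9* fell on the Edn1-inhibited list, with ratios of Edn1 overexpression to mutant fold change of 0.397, 0.355 and 0.177. *tbx22* fell on the Edn1-activated list (2.99). These hold 18.9% and 14.9% of the arch genes. *pax9* was on the Notch-activated list, with a ratio of NICD to *jag1b*-/- fold change of 3.44, and *tbx22* on the Notch-inhibited list, where the ratio was 0.00989. These hold 12.2% and 9.32% of the arch genes. *gsc* was on none of the 4 lists. *tbx22* thus stood opposite *pax9* in both pathways. With siblings as the wild type *lhx8a* left the Edn1-inhibited list. With median-ratio scaling the arch list shrank to 349 genes, and *pax9* left it.

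Among themselves the 2 LIM genes were the most alike at 36 hpf, with a Pearson correlation of log2(RPKM + 0.1) of 0.920 over the 9 double-positive libraries of that stage. *pax9* and *tbx22* gave 0.006 over the same libraries. *lhx8a* and *gsc* were close behind the LIM pair there, at 0.905. Over all 11 double-positive libraries the correlations of the LIM pair and of *pax9* with *tbx22* were 0.9804 and 0.574. Without the 20 hpf library, where all 5 genes were near 0, they were 0.868 and 0.292. In that setting *lhx6* was closer to *gsc* (0.902) than to *lhx8a*, so the LIM pair was not the most alike in every setting. The ratio of *lhx6* to *lhx8a* RPKM was 1.75 at 28 hpf and 3.28 at 36 hpf. It was 3.60 with Edn1 overexpression and 3.08 with NICD, against 3.52 and 3.75 in the heat-shocked controls, but 1.78 with DBZ, against 3.28 in wild types and 2.74 in siblings. In single-positive cells it was 1.56 (*fli1a*) and 1.101 (*sox10*).

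The genes most like each of the 5 over the 11 double-positive libraries, by that correlation, were as follows. For *lhx6* they were *hmx4* (0.985), *mab21l2* (0.984) and *FAT4* (0.982), with *lhx8a* next. For *lhx8a* they were *foxf2a* (0.983), *mab21l2* (0.982) and *lhx6* (0.9804). For *pax9* they were *foxf2b* (0.984), *ngfra* (0.979) and *twist2* (0.974). For *tbx22* they were *fgfbp2b* (0.984), *pou2f2a* (0.959) and *nkx3.2* (0.954). For *gsc* they were *fopnl* (0.992), *atp6v1e1a* (0.9798) and *hmx4* (0.977). *fgfbp2b* was low with NICD as *tbx22* was, at 0.122 RPKM, against 2.11 in *hsp70I*:Gal4 controls, and *twist2* was higher, as *pax9* was, at 10.8 RPKM, against 4.56. The NICD library was among the 11 used to pick these genes, so such likeness follows in part from the choice. *pou2f2a* and *atp6v1e1a* each have more than 1 entry under that name in the table. Likeness here is a description over libraries that share a stage or a treatment. It also rests on the 20 hpf library, where all 5 genes were near 0. *FAT4* was 1.01 RPKM there and 3.68 to 5.91 in the other double-positive libraries. Without that library *lhx6* kept only *hmx4*, and *lhx8a* none, with *inhbaa*, *ift20* and *nog3* nearest. *pax9* kept *foxf2b*, *tbx22* kept *fgfbp2b* and *pou2f2a*, and *gsc* kept *fopnl* and *atp6v1e1a*.

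In order of level across the 11 double-positive libraries, *lhx6* was highest in *edn1*-/- (30.45 RPKM), then in *jag1b* siblings (29.9), which differed by less than the spread between wild-type libraries, and lowest at 20 hpf. *lhx8a* was highest in *jag1b*-/- (11.3), followed within that spread by siblings (10.9), DBZ (10.4) and *edn1*-/- (10.2). *pax9* was highest in *edn1*-/- (25.4), followed by NICD (15.8) and siblings (12.7). *tbx22* was highest in *jag1b*-/- (5.88), followed by siblings (4.81), DBZ (3.90) and wild types (3.35). Each of these differed from the next by less than that spread, which is a single ratio of siblings over wild types (1.44 for *tbx22*). The *jag1b*-/- level was 1.75 times that of wild types but 1.22 times that of its own siblings. *gsc* was highest in siblings (33.4), followed by *jag1b*-/- (25.0) and wild types (18.3). Apart from 20 and 28 hpf, the lowest double-positive library was Edn1 overexpression for *lhx6*, *lhx8a*, *pax9* and *gsc*, and NICD for *tbx22*.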

How the data were processed

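Double-positive and single-positive cells were sorted from pooled zebrafish embryos in 13 populations, 1 library each. The authors made cDNA with the SMARTer V3 kit, mapped the reads to the GRCz10 assembly with TopHat 2, and used Partek for expression of Ensembl release 80 genes. The deposited values are RPKM of the authors, used as they stand. Ratios are RPKM over RPKM, with a 1.5-fold threshold among the 11690 genes averaging 1 RPKM or more across the 13 libraries. A gene at 0 in 1 library counts as past the fold. No test was made, since there is 1 library per condition.

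Depth was recovered from the commonest ratio of low values, and whole reads as the smallest whole numbers that fit each gene within 0.06 of a read. They came out for *lhx6*, *lhx8a*, *pax9* and *gsc*, and not for *tbx22*. Counting intervals are 95% Clopper-Pearson. The code was tested on simulated data. Tools were Python 3.11.15, scipy 1.17.1, pandas 2.3.3, numpy 2.4.6 and, for figures, matplotlib 3.10.9. Named are the 5 genes, the targeted genes, the 3 genes most like each of the 5, family members with a mean RPKM of at least 1, and up to 4 genes of each other list with the highest mean. Other list genes given by name were chosen after their values were seen. The genes and lists were chosen with earlier results of these data known. Some list genes are not reported here by name. Of the marker genes, *mpeg1* and *otog* had no match in the table. No sequences are shown.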

Additional observations from a re-analysis of the deposited data

How the results depend on the processing

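No paired analysis was possible because each condition has 1 library and no replicate numbers are shared. Leaving out a replicate was not possible either. Of the single-gene values under the alternatives, 134 stayed within the counting interval of the value reported (for the heat-shocked controls, within 1 SD of the 4 controls), 59 moved beyond it, and 2 that were past the threshold changed direction: *lhx8a* with siblings as the wild type gave a log2 ratio of -0.10 in *edn1*-/- and -0.066 with DBZ. Among the 134 are *lhx6* and *lhx8a* at 28 over 20 hpf with median-ratio scaling. These could not move, since their ratios over 0 were set to the unscaled floor of 378-fold and 141-fold. The SD of the 4 controls takes in the difference between heat-shocked and unshocked ones, so staying within it says little. Control swaps moved more values than scaling did. With siblings as the wild type 16 moved, 2 changed direction and 7 stayed. With *UAS*:Edn1 controls 3 moved and 7 stayed, and with median-ratio scaling 8 moved and 42 stayed. The counts of the 5 genes past the threshold changed by over 1.5 times as follows. In *edn1*-/- it was 3, and 1 at a fold of 2. With Edn1 overexpression it was 5, 3 with a pseudocount of 1 and 1 at a fold of 2. In *jag1b*-/- it was 0, and 2 against the wild-type 36 hpf library, where 12.8% of all genes were upward and 20.5% downward. With DBZ it was 1, 0 with a pseudocount of 1 or at a fold of 2, and 2 with siblings. Against siblings 12.2% of all genes were upward with DBZ and 8.73% downward. With NICD it was 2, and 1 at a mean RPKM of at least 3, which leaves *tbx22* out. Of the heat-shocked controls it was 5, and 3 at a fold of 2. The Notch-activated list held 1 of the 5, and 0 with median-ratio scaling. The other counts kept within 1.5 times, with 4 or 5 genes past the threshold between stages and populations. The cause was not tested, apart from a higher threshold or fewer genes tested. The 3 genes named as most like each gene shared 0 to 3 with those under other settings. Some alternatives were added after seeing the data: likeness without the 20 hpf library or at 36 hpf only, and siblings as the only unshocked control.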
